A study of Mus musculus with 4 samples.

Results

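Methylation of array regions at 5 genes that write or erase DNA methylation was measured in mouse 3T3-L1 cells: the DNA methyltransferase genes Dnmt1, Dnmt3a and Dnmt3b and the dioxygenase genes Tet1 and Tet2. All genomic array probes that lie in 5 windows of the mm9 build around these genes were taken, whatever their values, which gave 52 of 174638 probes. The genes and windows themselves were chosen with earlier results of these data known. The 52 probes form 8 of the 21973 tiled regions of at least 3 probes on the array. Dnmt1 has 2 of these, Dnmt3a has 3, and Dnmt3b, Tet1 and Tet2 have 1 each. 3T3-L1 is an embryo fibroblast line committed to the fat lineage, which turns into fat cells when it is induced. DNA was immunoprecipitated with an antibody against 5-methylcytosine and hybridised in Cy5 (IP) beside untreated input DNA in Cy3 on a two-colour tiling array (MeDIP-chip). The 4 samples were shRNA8 cells at day +2, shRNA8 cells at day -2, control cells at day +2 and control cells at day -2, with 1 array each. The shRNA8 cells were 3T3-L1 stably transfected with an shRNA against slincRAD, a long non-coding RNA. The control cells were wild type 3T3-L1, without a transfected control among these samples. Day -2 cells had not been induced, and day +2 cells had been kept after confluence with insulin (167 nM), dexamethasone (1 µM) and the phosphodiesterase inhibitor 3-isobutyl-1-methylxanthine (0.5 mM). The arrays measure DNA only, so neither the knockdown nor the expression of the 5 genes could be checked. With no replicate array, a difference between samples could not be set against the spread between cultures, and no test was made.

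Dnmt1 copies methylation onto the new DNA strand after replication and so maintains existing patterns. Dnmt3a and Dnmt3b place methylation on unmethylated sites, and the Tet enzymes oxidise 5-methylcytosine, which opens the way to its removal. Promoters rich in the dinucleotide CpG, the main site of methylation in mammals, are mostly unmethylated in normal cells. Dnmt1 and Dnmt3a each have more than 1 promoter in the mouse: an oocyte form of Dnmt1 starts upstream of the somatic form, and a short form of Dnmt3a starts inside the gene.

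RefSeq lists 9 start sites for the 5 genes in the GRCm38.p6 build, all 5 genes being matched by symbol. The promoter sequences of 7 of them are given here because their content of CpG differs widely, which bears on how an antibody against 5-methylcytosine can enrich them. Each runs 5′ to 3′ along the strand of the gene, with 250 bases before the start and 50 after it, and CG is in capitals. The windows lie at chr9:20959839-20960138 (Dnmt1 start 1, minus strand), chr9:20952574-20952873 (Dnmt1 start 3, minus strand), chr12:3806730-3807029 (Dnmt3a start 1, plus strand) and chr12:3891494-3891793 (Dnmt3a start 3, plus strand). Those of the other genes lie at chr2:153649199-153649498 (Dnmt3b, plus strand), chr10:62887275-62887574 (Tet1, minus strand) and chr3:133544341-133544640 (Tet2, minus strand).
Dnmt1 start 1: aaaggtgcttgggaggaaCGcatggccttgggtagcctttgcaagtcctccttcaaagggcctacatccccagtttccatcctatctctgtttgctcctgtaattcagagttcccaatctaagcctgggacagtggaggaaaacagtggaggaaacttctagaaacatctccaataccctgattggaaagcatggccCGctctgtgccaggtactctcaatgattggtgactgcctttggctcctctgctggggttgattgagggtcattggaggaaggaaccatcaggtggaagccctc
Dnmt1 start 3: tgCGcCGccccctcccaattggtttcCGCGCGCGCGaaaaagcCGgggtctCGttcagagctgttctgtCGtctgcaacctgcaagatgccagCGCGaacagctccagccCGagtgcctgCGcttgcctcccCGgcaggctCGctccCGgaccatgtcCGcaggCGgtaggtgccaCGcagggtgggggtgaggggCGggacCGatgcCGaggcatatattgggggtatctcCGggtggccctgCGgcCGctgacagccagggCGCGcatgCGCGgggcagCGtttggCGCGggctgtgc
Dnmt3a start 1: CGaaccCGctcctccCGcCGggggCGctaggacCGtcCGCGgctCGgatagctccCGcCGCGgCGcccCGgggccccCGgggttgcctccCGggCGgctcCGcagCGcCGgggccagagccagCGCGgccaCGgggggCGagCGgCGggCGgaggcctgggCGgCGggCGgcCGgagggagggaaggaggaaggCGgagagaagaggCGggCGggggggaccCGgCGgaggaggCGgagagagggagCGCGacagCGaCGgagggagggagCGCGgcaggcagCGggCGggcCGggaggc
Dnmt3a start 3: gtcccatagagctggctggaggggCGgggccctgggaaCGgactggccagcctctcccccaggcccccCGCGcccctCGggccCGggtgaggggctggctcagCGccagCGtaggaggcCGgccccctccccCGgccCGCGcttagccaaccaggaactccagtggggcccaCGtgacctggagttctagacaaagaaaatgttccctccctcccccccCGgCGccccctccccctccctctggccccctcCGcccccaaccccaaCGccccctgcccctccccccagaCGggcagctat
Dnmt3b: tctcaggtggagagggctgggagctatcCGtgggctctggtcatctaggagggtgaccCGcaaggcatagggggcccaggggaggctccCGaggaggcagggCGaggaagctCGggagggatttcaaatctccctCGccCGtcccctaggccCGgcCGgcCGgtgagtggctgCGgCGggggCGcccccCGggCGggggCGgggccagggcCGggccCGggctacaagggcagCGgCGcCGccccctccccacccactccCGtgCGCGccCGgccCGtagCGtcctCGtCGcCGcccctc
Tet1: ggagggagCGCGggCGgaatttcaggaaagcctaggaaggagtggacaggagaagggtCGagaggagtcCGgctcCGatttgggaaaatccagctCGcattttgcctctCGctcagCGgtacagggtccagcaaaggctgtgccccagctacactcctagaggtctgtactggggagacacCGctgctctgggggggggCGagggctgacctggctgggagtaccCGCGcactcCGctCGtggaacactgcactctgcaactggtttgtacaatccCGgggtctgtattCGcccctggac
Tet2: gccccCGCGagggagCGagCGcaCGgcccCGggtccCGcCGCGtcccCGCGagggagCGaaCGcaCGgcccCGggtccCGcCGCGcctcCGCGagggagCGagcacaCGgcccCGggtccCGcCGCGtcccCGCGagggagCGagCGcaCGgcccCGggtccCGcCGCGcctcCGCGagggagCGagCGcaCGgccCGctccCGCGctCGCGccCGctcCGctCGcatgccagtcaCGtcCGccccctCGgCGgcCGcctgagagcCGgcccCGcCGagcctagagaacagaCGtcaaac

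The letters CG, which read the same on both strands and cannot overlap themselves, occurred 57 times in the Tet2 window, and 0.110% of the 32851 RefSeq windows of the same length held more. The first Dnmt3a window held 46 and a neighbouring start, 180 bp further on, held 47. The start inside Dnmt3a, 84764 bp from the first, held 18. The Dnmt3b window held 30 and the Tet1 window held 17. The 3 Dnmt1 windows spanned the widest range, with 33 at the third start, 12 at the second and 2 at the first. Over all windows the median was 7, the quartiles were 3 and 20, and 94.6% held at least 1. All 9 windows but that of the first Dnmt1 start thus stood above the median, and those of Tet2, Dnmt3b, the first 2 Dnmt3a starts and the third Dnmt1 start stood above the upper quartile.

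**Figure D1:**
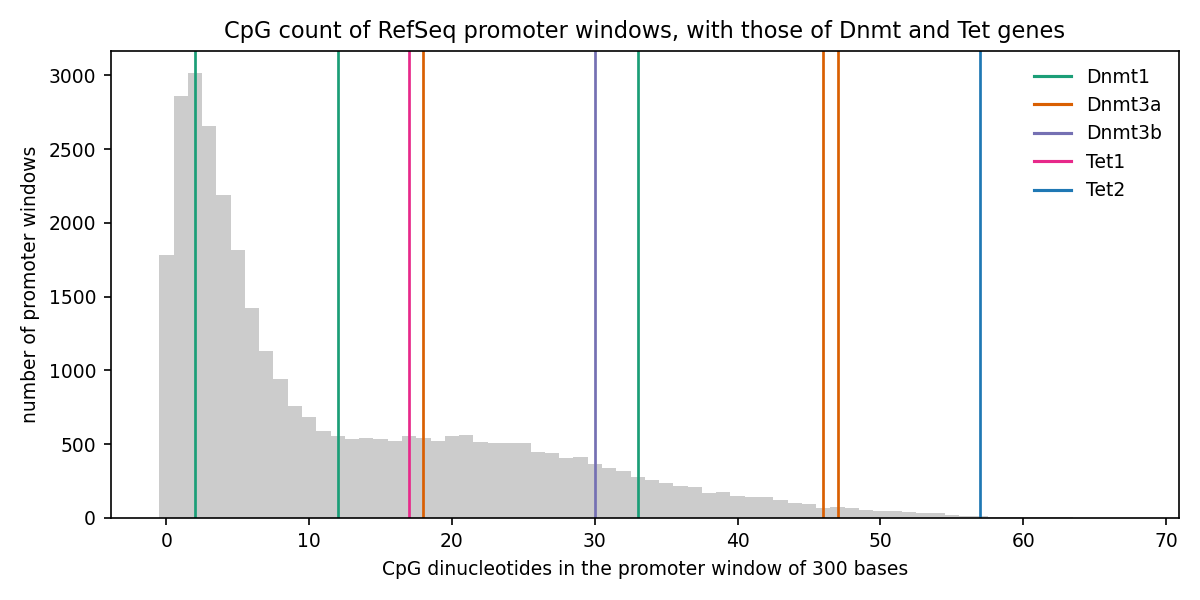
The histogram gives the number of RefSeq promoter windows (vertical axis) by the number of CpG dinucleotides they hold in 300 bases (horizontal axis), and coloured lines mark the 9 windows of the Dnmt and Tet genes. Tet2 stands at the far right with 57, while the 3 Dnmt1 windows stand at 33, 12 and 2.

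The array regions are given in mm9, another build, so the sequences could not be laid over the probes. The spacing within each build could be compared. The third Dnmt3a region of the array began 84764 bp after the first, the same distance as between the outer RefSeq starts of Dnmt3a. The second Dnmt3a region began 56061 bp after the first, where RefSeq has no Dnmt3a start at a like distance. The start of Dnmt3aos, a non-coding RNA gene on the opposite strand inside Dnmt3a, lies 55264 bp from the first Dnmt3a start. The 2 Dnmt1 regions began 7272 bp apart, and the first and the third RefSeq starts of Dnmt1 lie 7265 bp apart. No region was assigned to a start from these distances.

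A probe was used when it was free of quality flags and its input signal was above background in all 4 arrays. This held for 37 of the 52 probes, or 71.2%, against 54.4% of all probes. Of the other 15, 1 was flagged and 14 had dim input. The flagged probe, the seventh of Dnmt3b, had an input signal of 812 and 834 scanner units in shRNA8 cells at day +2 and day -2, against 727 and 2506 in control cells, so that the control array of day -2 stood apart. The first Dnmt1 region (chr9:20756638-20758687) kept 7 of 9 probes and the second (chr9:20763910-20764888) kept 1 of 5, while 2 more probes of that second region lie outside the window. The 3 Dnmt3a regions kept 6 of 7 probes (chr12:3805687-3807152), 5 of 6 (chr12:3861748-3863361) and 4 of 7 (chr12:3890451-3892048). Dnmt3b (chr2:153473893-153475501) kept 5 of 8, Tet1 (chr10:62342278-62342762) kept 2 of 3 and Tet2 (chr3:133206862-133208385) kept 7 of 7. Levels and differences per region are given for the 6 regions with at least 3 usable probes. The second Dnmt1 region and Tet1 are described probe by probe.

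The median signal of the 37 usable probes was above that of all usable probes of the array in both channels. The median IP signal of the 37 probes after background subtraction was 217 and 206 scanner units in shRNA8 cells at day +2 and day -2, against 184 and 190 in control cells on the same days. Over all usable probes it was 169 and 168 in shRNA8 cells, against 148 and 146 in control cells. The median input signal of the 37 probes was 38.6 and 40.4 in shRNA8 cells at day +2 and day -2, against 30.3 and 31.8 in control cells. Over all usable probes the input median was 28.4 and 29.3 in shRNA8 cells, against 20.3 and 21.9 in control cells. Input was thus brighter in both shRNA8 arrays than in both control arrays, over the whole array as in these genes. The shRNA8 arrays took positions 1 and 2 of the slide and the control arrays positions 3 and 4, so line and position cannot be told apart.

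The level of a region is the mean over its probes of the log2 ratio of IP to input, after centring on the array median and quantile normalisation, so that 0 is the middle of the array. It is a relative measure of immunoprecipitated DNA and not a fraction of methylated sites. In each of the 4 arrays the third Dnmt3a region had the highest level of the 6 regions and Tet2 the lowest, but both places depended on the processing. A stricter input filter left 5 of the 6 regions, without the second Dnmt3a region. Among these, Dnmt3b was lowest in all 4 arrays, at -1.20 in shRNA8 cells at day +2 and -1.14 in control cells at day -2, where Tet2 had -0.66 and -0.79. With the median over probes, the second Dnmt3a region was lowest in all 4 arrays. The first Dnmt3a region then stood above the third in shRNA8 cells at day +2, at 0.47 against 0.21. With the IP channel alone, the first Dnmt3a region was highest in all 4 arrays.

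The third Dnmt3a region had a level of 0.20 in shRNA8 cells at day +2, 0.38 in shRNA8 cells at day -2, 0.48 in control cells at day +2 and 0.45 in control cells at day -2. These levels stood between the 70.1 and 82.3 percentiles of the 17452 regions of the array. Its 4 probes differed little, with an SD of 0.13 to 0.56 over probes in the 4 arrays.

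The first Dnmt1 region had a level of 0.16 in shRNA8 cells at day +2, 0.28 in shRNA8 cells at day -2, 0.19 in control cells at day +2 and 0.29 in control cells at day -2. These levels stood between the 67.9 and 74.7 percentiles, above the middle of the array. They lay below it in every array, between -0.19 and -0.05, with a within-array loess, and between -0.21 and -0.10 with the IP channel alone. In the first Dnmt3a region the level was 0.19 in shRNA8 cells at day +2, -0.04 in shRNA8 cells at day -2, -0.12 in control cells at day +2 and 0.03 in control cells at day -2. These values lie on both sides of 0, with an SD over probes of 1.80 to 2.16.

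The second Dnmt3a region had a level of -0.65 in shRNA8 cells at day +2 and -0.68 in shRNA8 cells at day -2, against -0.25 in control cells at day +2 and -0.23 in control cells at day -2. Both shRNA8 arrays lay below both control arrays by more than the 2 arrays of either line differed from each other. The 2 arrays of a line are different days and not replicates. How many regions of the whole array have this pattern was not counted. Both shRNA8 levels stood near the 28.7 and 28.0 percentiles of their arrays, and both control levels near 47.6 and 48.7.

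Dnmt3b and Tet2 lay below the middle of the array in every sample. With the IP channel alone, Dnmt3b lay above it, between 0.41 and 0.48. Without the input filter, Dnmt3b and Tet2 were both below it in 3 of the 4 arrays. The Dnmt3b level was -0.86 in shRNA8 cells at day +2, -1.002 in shRNA8 cells at day -2, -0.87 in control cells at day +2 and -0.85 in control cells at day -2. The Tet2 level was -1.06 in shRNA8 cells at day +2, -1.01 in shRNA8 cells at day -2, -1.10 in control cells at day +2 and -1.16 in control cells at day -2. Dnmt3b stood between the 17.5 and 22.5 percentiles of all regions and Tet2 between 13.96 and 17.3. The Tet2 level rests in part on its last probe, the only one of the 37 whose IP signal was not above background. Without such probes, Tet2 had -0.61 in shRNA8 cells at day +2, -0.50 in shRNA8 cells at day -2, -0.53 in control cells at day +2 and -0.70 in control cells at day -2, and Dnmt3b was lowest in all 4 arrays. The order of the 6 regions is a description only, since neighbours in it lay closer together than the SD over probes of at least 1 of the pair in every array. Levels of different regions also carry the composition and length of their probes. With the median of all probes of the same length removed in each array, Tet2 ranged from -1.02 to -0.87 and Dnmt3b from -1.08 to -0.95, and each was lowest in 2 arrays. The part of base composition was not tested. Over all usable probes, those of 60 bases had a median ratio of -1.49 to -1.23 in the 4 arrays and those of 45 bases 0.02 to 0.05. Of the 52 probes, 37 had 45 bases and 3 had 60.

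In every region with at least 2 usable probes, the median SD over probes was larger than the median SD of a probe over the 4 arrays. For Tet2, the SD over its 7 probes was 2.23 and the SD of a probe over the 4 arrays was 0.17 (medians), a ratio of 13.1, or 11.4 without its last probe. The ratio was 12.2 in Dnmt3b, 5.97 in the first, 5.34 in the second and 1.5 in the third Dnmt3a region, and 3.94 in the first Dnmt1 region. Tet1, with only 2 usable probes, had 18.4. The median over all regions of the array was 5.13. In the third Dnmt3a region the SD over probes was 0.13 in shRNA8 cells at day +2, below the 0.22 of a probe over the arrays. The first Tet2 probe had the highest normalised ratio of its region, at 1.09 in shRNA8 cells at day +2, 1.74 in shRNA8 cells at day -2, 1.76 in control cells at day +2 and 1.41 in control cells at day -2. The last Tet2 probe had the lowest ratio in every array. It is also the only Tet2 probe of 60 bases, and as its IP signal did not exceed 1.29 scanner units and was not above background in any array, its ratio is a limit and not a level. The same probe was lowest, and the same probe highest, in all 4 arrays in each region with at least 2 usable probes except the third Dnmt3a region, where this held for 3 and 2 arrays. Of the 37 probes, 16 had a ratio above 0 in every array, 15 had one below 0 in every array and 6 had both, against 40.8%, 41.2% and 18.0% of all usable probes.

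**Figure D2:**
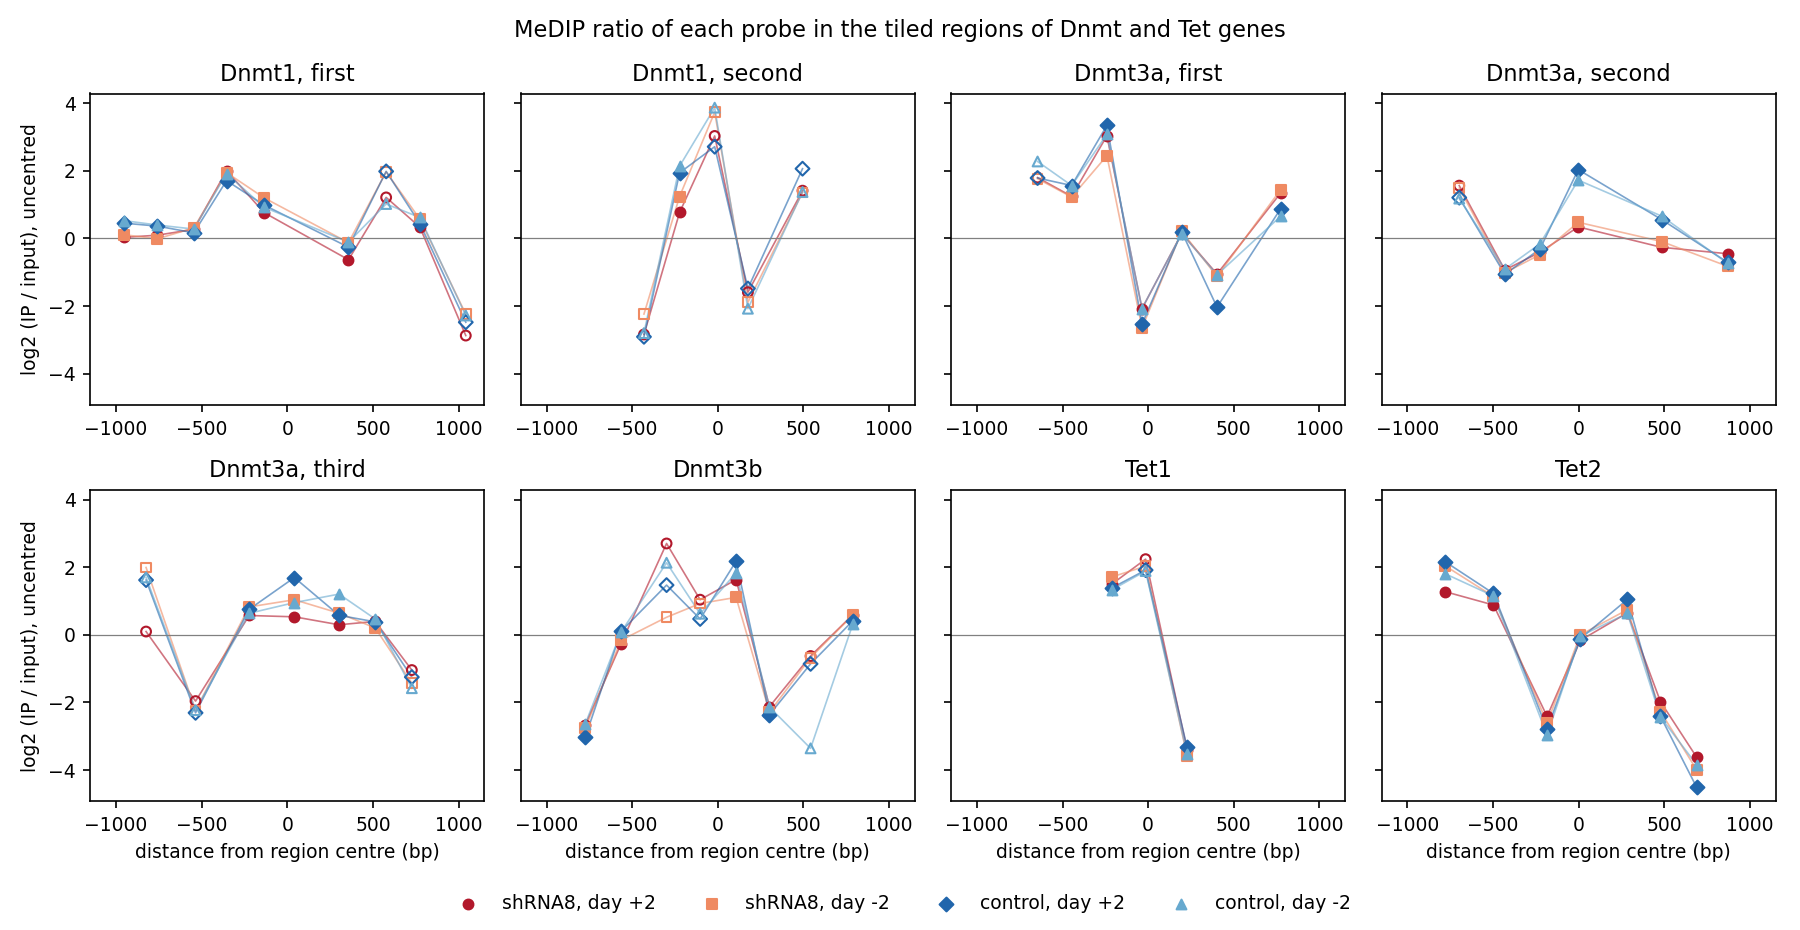
Each panel is 1 tiled region, with the log2 ratio of IP to input of each probe before centring (vertical axis) by distance from the region centre in bp (horizontal axis), and 1 colour per sample. Open symbols are probes left out by the filters. The 4 profiles largely overlie each other in every region, and among the filled symbols the widest gap between the lines on both days is at a central probe of the second Dnmt3a region, where both control samples stand above both shRNA8 samples.

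Tet1, an oxidising enzyme best known from embryonic stem cells, showed a wide step between its 2 usable probes. Its first probe had a normalised ratio of 1.32 in shRNA8 cells at day +2 and 1.41 in shRNA8 cells at day -2, against 0.99 in control cells at day +2 and 0.94 in control cells at day -2. The third probe had -3.77 and -3.92 in shRNA8 cells at day +2 and day -2, against -3.58 and -3.85 in control cells. The first probe lay high in every array and the third low in every array. The IP signal of the first probe was 945 and 985 scanner units in shRNA8 cells at day +2 and day -2, against 810 and 888 in control cells. That of the third probe was 98.5 and 98.8 in shRNA8 cells, against 78.7 and 81.5 in control cells. Its input signal was 238 and 289 in shRNA8 cells, against 162 and 203 in control cells. The middle Tet1 probe had no input signal above background. With that probe included, the mean difference of shRNA8 minus control over the 3 probes was 0.20 ± 0.32 at day +2 and 0.17 ± 0.23 at day -2 (SD over probes).

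The comparison of shRNA8 with control cells asks whether these regions are methylated differently in cells that carry the shRNA. A region was counted as different when its mean difference was at least 0.6 on the log2 scale, which is 1.52-fold, with at least 75% of its probes moving that way. None of the 6 Dnmt and Tet regions passed this rule at day +2, where 3.34% of all regions did, and none passed at day -2, where 2.43% did. At these background shares a count of 0 among 6 regions is not particular to them. The regions ranged from -0.40 to 0.31 at day +2 and from -0.45 to 0.15 at day -2, inside the central 95% of all regions on each day.

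The second Dnmt3a region was lowest in shRNA8 relative to control cells on both days. The difference was -0.40 ± 0.75 at day +2 (SD over 5 probes), with 3 of 5 probes lower. At day -2 it was -0.45 ± 0.46, with 5 of 5 probes lower, and 4.50% of all regions lay as low. A single probe carried much of it, and without that probe the difference was -0.12 ± 0.45 at day +2 and -0.27 ± 0.28 at day -2.

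That probe, the fourth of the second Dnmt3a region (chr12:3862443-3862487 in mm9), had a normalised ratio of 0.09 in shRNA8 cells at day +2 and 0.18 in shRNA8 cells at day -2, against 1.63 in control cells at day +2 and 1.33 in control cells at day -2. Both shRNA8 values lay below both control values, but the 2 values of a line are different days and not replicates. The difference was -1.54 at day +2 with an error of 0.40, and -1.15 at day -2 with an error of 0.39, where the error is the one the extraction software gives each ratio, combined over both arrays. It describes the spot and not the culture. The IP signal of this probe was 226 and 206 scanner units in shRNA8 cells at day +2 and day -2, against 197 and 195 in control cells. The input signal was 37.0 and 35.9 in shRNA8 cells against 8.90 and 11.6 in control cells. Relative to the array medians, the IP channel differed between the lines by 0.03 and -0.05 on the log2 scale at day +2 and day -2, and the input channel by 1.60 and 1.14. The lower ratio in shRNA8 cells thus lay in the input channel and not in the immunoprecipitated DNA. The input of this probe in control cells was below the medians of all usable probes, 20.3 at day +2 and 21.9 at day -2. The stricter input filter left 3 of the 6 probes of this region. These did not form a region of at least 3 probes up to 1000 bp apart, so the region could not be measured with it.

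**Figure D3:**
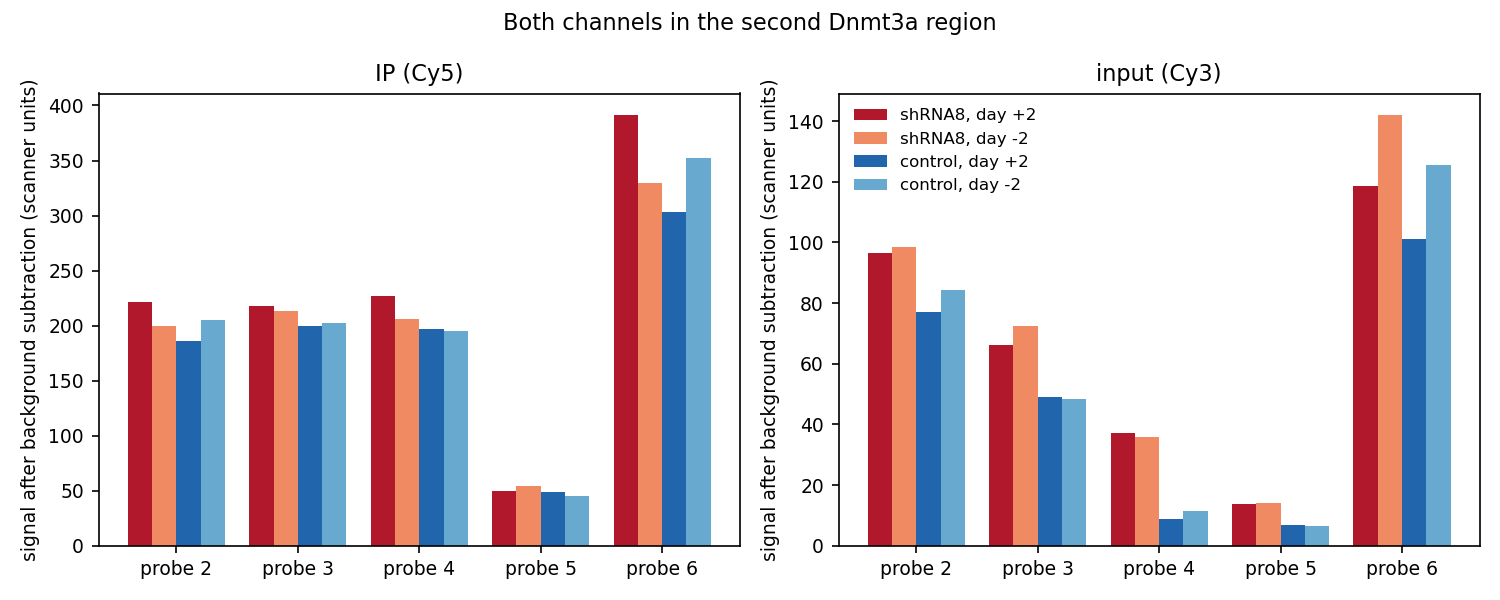
Bars give the IP signal (left) and the input signal (right) after background subtraction, in scanner units, for the 5 usable probes of the second Dnmt3a region in each of the 4 samples, with no error bars as each is 1 spot. At probe 4 the IP bars are of like height, between 195 and 226, while the input bars stand at 37.0 and 35.9 in shRNA8 cells, against 8.90 and 11.6 in control cells.

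Across the 37 probes, the fourth probe of the second Dnmt3a region was the only one at least 1 log2 unit lower in shRNA8 cells on both days, a share of 2.7% against 0.854% of all usable probes. This size and the next were chosen after the values were seen. The lines differed by at least 0.6 in the lower direction on both days at 3 probes, or 8.11% against 3.51% of all usable probes, and in the higher direction at 1 probe, or 2.7% against 2.02%. The second of the lower probes was the fifth of the second Dnmt3a region, with differences of -0.76 and -0.67 at day +2 and day -2 and errors of 0.60 and 0.67. The third was the only usable probe of the second Dnmt1 region. Its normalised ratio was 0.54 in shRNA8 cells at day +2 and 0.95 in shRNA8 cells at day -2, against 1.54 in control cells at day +2 and 1.74 in control cells at day -2. Its input signal of 10.9 and 8.44 scanner units in shRNA8 cells, against 3.30 and 3.67 in control cells, was among the dimmest of the usable probes. With all 5 probes of that region in the window, the mean difference was -0.25 ± 0.58 at day +2 and -0.05 ± 0.54 at day -2 (SD over probes). The probe that was higher was the last of the first Dnmt3a region, with 1.16 and 1.15 in shRNA8 cells at day +2 and day -2, against 0.51 and 0.29 in control cells.

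**Figure D4:**
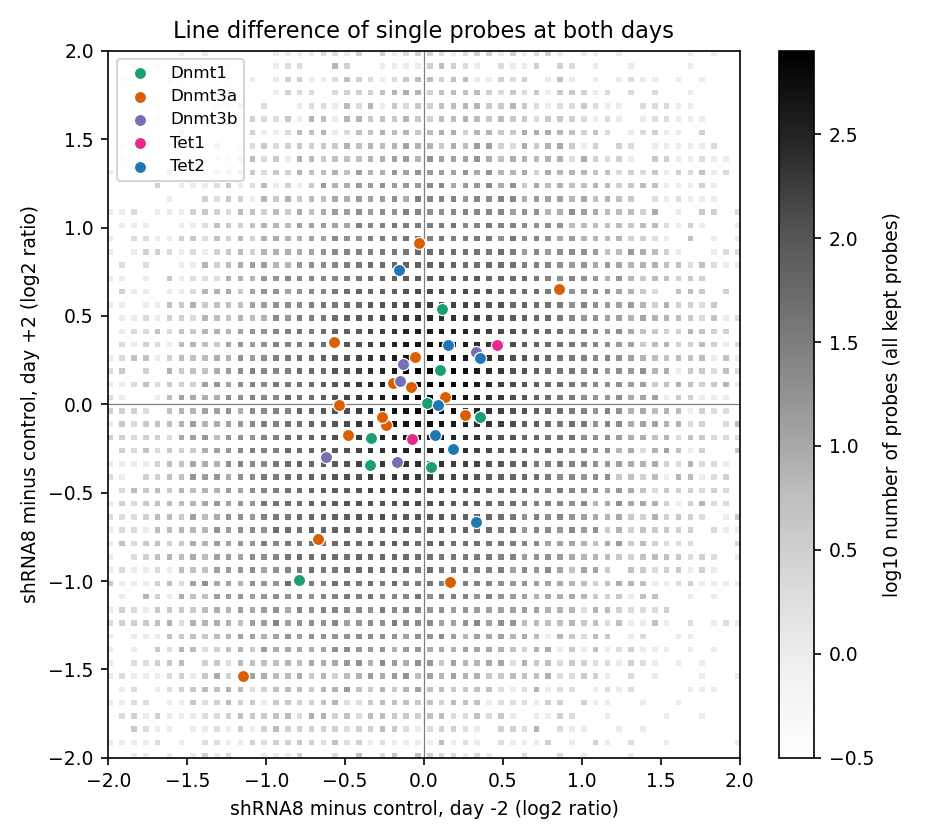
Each coloured point is 1 of the 37 usable probes, with its difference of shRNA8 minus control at day -2 (horizontal axis) and at day +2 (vertical axis) in log2 ratio, over a grey density of all usable probes. Most points lie within 0.6 of 0 on both axes, and the isolated point at lower left is the fourth probe of the second Dnmt3a region, at -1.15 and -1.54.

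Without regard to size, 12 of the 37 probes (32.4%) were lower in shRNA8 cells on both days and 9 (24.3%) were higher on both days, against 25.4% and 31.2% of all usable probes. On single days, 2 probes were at least 1 lower at day +2, where 4.96% of all usable probes were, and 1 at day -2, where 3.94% were. None was at least 1 higher, against 3.63% at day +2 and 3.49% at day -2. Most movement was in the input channel. At day +2 the input of 34 of the 37 probes differed more between the lines than the IP did, against 88.5% of all usable probes, and at day -2 that of 29 did, against 82.4%. The median size of the IP difference was 0.06 at day +2 and 0.07 at day -2, and that of the input difference was 0.30 and 0.19 on the log2 scale.

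The other regions differed less between the lines than the second Dnmt3a region did. In the first Dnmt3a region the difference was 0.31 ± 0.41 at day +2, where 75.3% of all regions differed less, and -0.07 ± 0.53 at day -2 (SD over 6 probes). In the third it was -0.28 ± 0.50 at day +2, where 71.6% of all regions differed less, and -0.06 ± 0.34 at day -2 (SD over 4 probes), and without 1 probe the value at day +2 was -0.04. Both Dnmt3a regions thus differed in size or sign from day to day. In Dnmt3b the difference was 0.01 ± 0.30 at day +2 and -0.15 ± 0.34 at day -2 (SD over 5 probes). In Tet2 it was 0.04 ± 0.46 at day +2 and 0.15 ± 0.17 at day -2, where 6 of 7 probes were higher. Without its last probe the Tet2 values were -0.08 ± 0.37 and 0.20 ± 0.12, so that the sign at day +2 turned. In the first Dnmt1 region it was -0.03 ± 0.32 at day +2 and -0.01 ± 0.25 at day -2 (SD over 7 probes). All 12 of these line differences, the second Dnmt3a region included, were smaller than the SD over their own probes, except that of Tet2 at day -2 once its last probe was left out. Over all regions of the array the median size of the difference was 0.176 at day +2 and 0.156 at day -2. The median SD over probes was 0.455 and 0.430, so a difference below the SD is not particular to these genes. The share of all regions below their own SD was not counted.

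The comparison of day +2 with day -2 asks whether these regions differed between the days within a line. Induction, time in culture and slide position differed together between the days, so they cannot be told apart. No Dnmt or Tet region passed the rule in shRNA8 cells, where 3.19% of all regions did, or in control cells, where 2.09% did. No single probe changed by 1 or more in either line. In shRNA8 cells 3.06% of all usable probes were at least 1 higher at day +2 and 3.84% at least 1 lower, and in control cells 3.61% and 3.13%.

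In shRNA8 cells the change of day +2 minus day -2 was 0.23 ± 0.33 in the first Dnmt3a region, with 5 of 6 probes higher, 0.03 ± 0.20 in the second and -0.18 ± 0.30 in the third (SD over probes). It was 0.14 ± 0.30 in Dnmt3b, -0.05 ± 0.33 in Tet2 and -0.12 ± 0.27 in the first Dnmt1 region. In control cells it was -0.14 ± 0.45, -0.02 ± 0.19 and 0.03 ± 0.55 in the 3 Dnmt3a regions in the same order. It was -0.02 ± 0.26 in Dnmt3b and 0.06 ± 0.33 in Tet2. Only the first Dnmt1 region of control cells changed by more than the SD over its probes, by -0.10 ± 0.09, with 6 of 7 probes lower, and 32.4% of all regions lay as low. The sign of this change depended on the processing, as it was 0.03 with the IP channel alone and 0.04 without background subtraction. Over all regions the median size of the change was 0.152 in shRNA8 cells and 0.149 in control cells. The median SD over probes was 0.402 and 0.410. The fourth probe of the second Dnmt3a region, where the lines stood apart, changed by -0.10 between the days in shRNA8 cells, against 0.30 in control cells, with errors of 0.32 and 0.46.

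**Figure D5:**
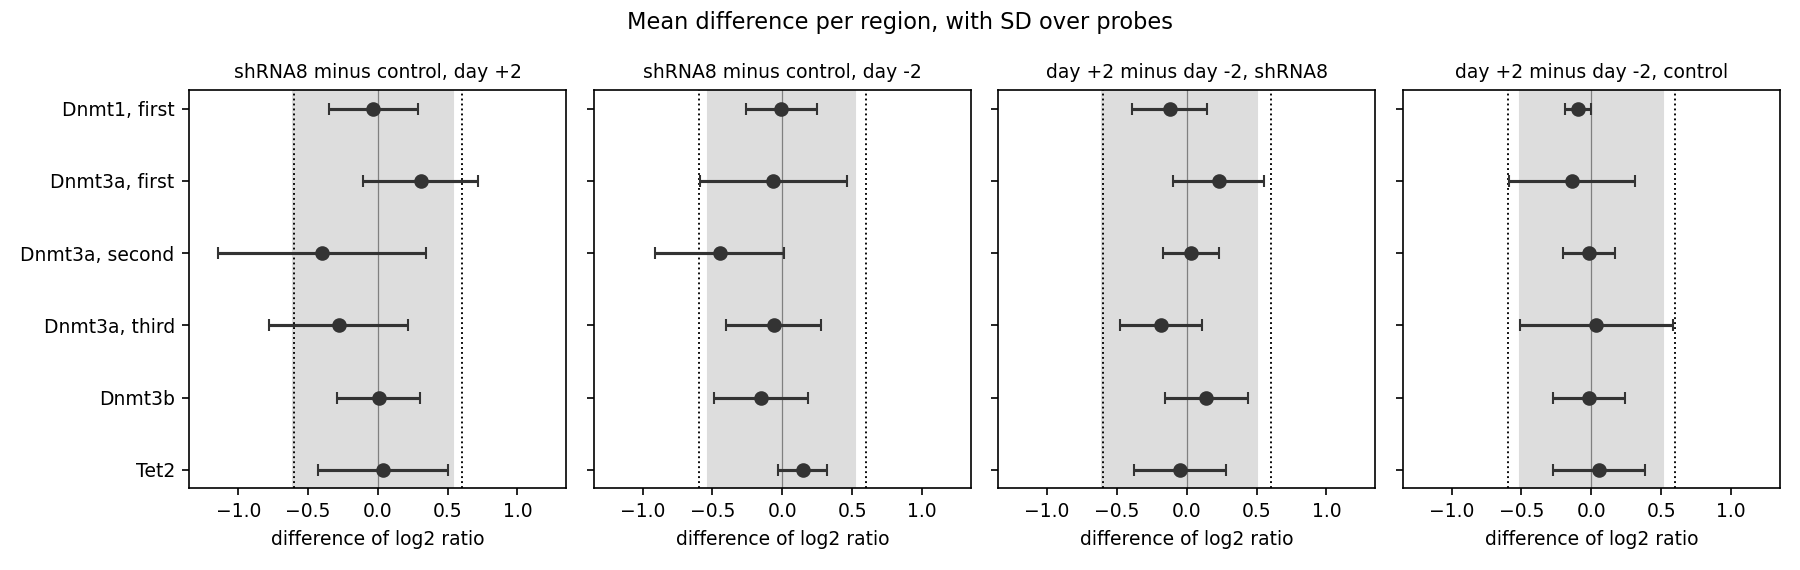
Points give the mean difference in log2 ratio of each of the 6 regions and bars its SD over probes, for both line comparisons and both day comparisons. Grey bands hold the central 95% of all 17452 regions, dotted lines mark 0.6 in either direction, and every point lies inside the bands.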

How the data were processed

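For each array the authors deposited a table from Agilent Feature Extraction 11.0.1.1, whose intensity columns hold spot signals before and after background subtraction and dye-normalised processed signals, per the file headers. The headers also name the mm9 build. Cy5 was IP and Cy3 input, per the labels. The error of each ratio came from the deposited log10 ratio error and was put on the log2 scale. The submitters' processing notes name limma, with no role given. For shRNA8 cells at day +2, the label of the input channel gives that day beside the words before adipogenesis, and day +2 was used.

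The log2 ratio of processed Cy5 to Cy3 signal was taken for the 174301 of 174638 probes without flags, the 95060 with input above background in all 4 arrays were kept, and their ratios were median centred and quantile normalised, which removes any overall difference in methylation. Probes up to 1000 bp apart, at least 3, formed a region. Number and brightness of probes limit the precision. The genes, windows, rules and alternatives were chosen with earlier results of these data known. The rule for named genes takes all 5 genes and every region in their windows. Other genes of methylation (such as Dnmt3l, Tet3, Uhrf1 and Tdg) were not analysed here, since probes come with mm9 coordinates but no gene names, and the reference table follows GRCm38.p6. The region script was tested on simulated data. Alternatives were median centring alone, loess, no or a stricter input filter, signals without background subtraction, each channel alone, the median over probes, a correction for probe length, other region and size rules, and, added after seeing the data, leaving out the most extreme probe or probes with IP signal at background. Software was limma 3.58.1 in R 4.3.3, with pandas 2.3.3, numpy 2.4.6, matplotlib 3.10.9 and scipy 1.17.1 in Python 3.11.15.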

Additional observations from a re-analysis of the deposited data

Results flagged for a closer look

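The change from day -2 to day +2 had opposite signs in the 2 lines in 5 of the 6 regions, and in 47.2% of all regions of the array. The difference was not tested, as each line has 1 array per day. The change in shRNA8 cells minus that in control cells was 0.37 in the first Dnmt3a region, 0.045 in the second and -0.22 in the third, 0.16 in Dnmt3b and -0.11 in Tet2, on the log2 scale. The changes themselves were 0.23 in shRNA8 cells and -0.14 in control cells in the first Dnmt3a region, and each was smaller than the SD over its probes. In the second they were 0.03 in shRNA8 cells and -0.02 in control cells. In the first Dnmt1 region both lines changed in the same direction, by -0.12 in shRNA8 cells and -0.10 in control cells.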

How the results depend on the processing

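No Dnmt or Tet region that could be measured passed the size rule in any of the 4 comparisons under any alternative but 1. With a size of 0.4, 1 region passed between the lines at day -2, the second Dnmt3a region at -0.45, where 8.09% of all regions did. Only 5 of the 6 regions could be measured under 2 alternatives. The stricter input filter left out the second Dnmt3a region, and the rule of at least 5 probes left out the third. Without the input filter, all 8 tiled regions could be measured and none passed. Over the 12 settings that can change a difference, 281 of 284 differences moved by less than the SD over probes, a wide bound, and 45 had the opposite sign to the value reported, 13 of them with the IP channel alone and 7 without the most extreme probe. Over 11 such settings, 249 of 260 levels moved by less than that SD and 36 had the opposite sign, 14 of them with the IP channel alone, 6 without the input filter and 5 with a within-array loess. The third Dnmt3a region was highest in all 4 arrays under 5 of these 11 settings and Tet2 lowest in all 4 under 5. The count of regions that passed over the whole array, 365 to 583 over the 4 comparisons, depended on the processing. It was 946 to 1166 with a within-array loess, 1297 to 1796 with a size of 0.4, 253 to 560 without the input filter, 109 to 236 with at least 5 probes, and 97 to 225 without the most extreme probe of each region. It was 34 to 95 with the stricter input filter, 27 to 91 with a size of 1, 1 to 14 without background subtraction and 0 with the IP channel alone. The cause was not tested. No paired analysis was possible because no result comes from a test and the groups share only 1 replicate number. A fit with line and day as terms over all 4 arrays, with 1 residual degree of freedom, was not run. Input was dim at 14 of the 52 probes, which limits what the second Dnmt1 region and Tet1 can show.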
